A study of Homo sapiens with 11 samples.

Results

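The genes described here are MDM2, GADD45A, CCNG1, TP53INP1, ZMAT3, TP53I3, SESN1, SESN2 and BTG2, a set of 9 genes that p53 is known to switch on. They were chosen by gene symbol, as every probe set of the array whose current or older symbol is one of these names. Of the 9 genes, 8 had a named probe set, with 24 probe sets between them, among 19775 genes named on the array. BTG2, a brake on proliferation that helps recruit an mRNA deadenylase, and the gene encoding p53 had no probe set named in the annotation used, and their levels are not analysed here. All 8 measured genes were bright enough, by their mean over all arrays, to be among the 11865 genes tested.

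The RNA came from IMR32, a human neuroblastoma cell line that carries extra copies of MYCN, and was hybridised to 11 Affymetrix arrays of 1 colour. Cells labelled shMYCN had received lentivirus with a short hairpin RNA against MYCN and were collected at 24, 48 and 72 h, with 2 arrays (A and B) at each hour. Cells with the control virus carried the SHC002 hairpin and were collected at the same 3 hours, with 1 array at each. Cells without virus were collected at 0 h, with 2 arrays. All groups were the same line in the same medium with fetal calf serum, so the virus, its hairpin and the hour are what the labels vary. A single cell line and a single hairpin sequence against MYCN limit the arrays as a model. No label says outright that the paired arrays were grown as separate cultures, and the p-values then reflect the spread among these arrays alone, which may be technical.

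The brightest MYCN probe set had signals of 4567.4 to 5623.7 in the arrays labelled shMYCN, 5055.3 to 5389.7 with control virus and 4507.4 to 5040.1 without virus. Averaged over the 3 hours, the log2 difference of MYCN between shMYCN and control virus was -0.020 ± 0.081 (SE, limma adjusted p = 0.866). The MYCN transcript level thus does not check the labels, and the arrays are named by their labels throughout. Of 8 named markers of noradrenergic neuroblastoma cells, 7 were above the dim level. Their summed signals were 6787.9 to 7575.1 in shMYCN arrays, 6455.1 to 7550.3 with control virus and 6973.5 to 7192.2 without virus. Single markers moved either way within that sum. At 72 h DBH averaged 87.2 in shMYCN arrays against 205 with control virus, and CHGB 331.15 against 181.2. Of 7 fibroblast markers, 3 were above the dim level (COL1A1, PDGFRB and THY1), while COL1A2, COL3A1, DCN and LUM were not. The summed fibroblast markers were 565 to 812.3 in shMYCN arrays, 424 to 490.1 with control virus and 451.2 to 464.8 without virus. COL1A1 was the brightest, at 412.85, 541.75 and 653.65 in shMYCN at 24, 48 and 72 h against 292.2, 327.9 and 354.1 with control virus. PDGFRB was 27.05, 22.05 and 28.95 against 13.1, 19.7 and 18. THY1 was level, at 96.6, 95.65 and 86.4 against 90.6, 92.7 and 83.9. The part of these markers in the results below was not tested. In RNA of whole cultures, fewer cells of a type and less RNA per cell cannot be told apart.

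p53 is a transcription factor that is kept scarce by MDM2, the ubiquitin ligase that marks it for breakdown. DNA damage and other stress release it, and it then binds a response element made of a pair of decamers near its target genes. Its targets include its own inhibitors, such as MDM2 and cyclin G1, brakes on the cell cycle, DNA repair factors, inducers of cell death, and the sestrins, which restrain the growth kinase complex mTORC1. In neuroblastoma, MYCN has been described as an activator of both the p53 gene and MDM2.

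The sequence p53 reads is shown for the targets whose promoters held it. RefSeq promoter windows (build GRCh38.p14), which run from 250 bases before to 50 bases after an annotated start, were given for 7 of the 9 genes, 14 windows in all. None was used here for GADD45A or TP53INP1. The p53 response element was searched with a spacer of 0 or 1 base and up to 3 mismatches over its 20 letters, a pattern that reads the same on both strands. Matches lay in 3 of the 14 windows, belonging to MDM2 and SESN1, against 9.75% of all 35116 windows that hold at least 1 match. MDM2 has an upstream start and, within its first intron, a downstream start. Both downstream windows, which overlap almost wholly, held the same pair of matches, while the upstream windows came no closer than 5 mismatches. The 250 bases before the downstream MDM2 start (chr12:68808767-68809016, plus strand) and before the third SESN1 start (chr6:109008989-109009238, minus strand) are printed 5′ to 3′, with the matched elements in capitals.
MDM2: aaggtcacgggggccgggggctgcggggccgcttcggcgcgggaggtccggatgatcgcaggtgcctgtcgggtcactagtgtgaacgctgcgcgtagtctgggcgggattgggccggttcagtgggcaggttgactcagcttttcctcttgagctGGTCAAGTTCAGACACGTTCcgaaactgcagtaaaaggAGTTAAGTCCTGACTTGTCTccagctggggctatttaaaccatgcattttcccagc
SESN1: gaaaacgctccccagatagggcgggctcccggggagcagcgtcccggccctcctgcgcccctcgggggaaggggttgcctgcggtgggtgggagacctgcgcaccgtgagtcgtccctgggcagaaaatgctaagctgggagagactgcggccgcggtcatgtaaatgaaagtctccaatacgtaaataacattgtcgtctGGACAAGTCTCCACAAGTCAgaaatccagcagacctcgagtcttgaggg
In MDM2 the first match, with 2 mismatches, began 94 bases before the start, and the second, with 3 mismatches, began 56 bases before it. A tolerance of 2 mismatches was met in 1.34% of all windows. In SESN1 the match had 3 mismatches and began 49 bases before the start. A match is a run of letters and not a measured binding site, and no match says only that these letters are not in these windows. Neither MDM2 nor SESN1, the genes with a match, passed the test against control virus described next.

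Averaged over the 3 hours, GADD45A, TP53INP1, ZMAT3 and CCNG1 were higher in shMYCN than in control virus arrays, and SESN2 was lower. That made 4 genes higher and 1 lower of 8 (limma over all genes, adjusted p under 0.05), where 22.2% of all genes tested were called higher and 15.8% lower. MDM2, SESN1 and TP53I3 did not pass. The median log2 difference of the 8 genes was 0.19, against 0.037 for all genes tested. At the hour of each array, GADD45A, TP53INP1 and ZMAT3 were above the control array in all 6 shMYCN arrays, as were 21.4% of all genes, and SESN2 was below it in all 6, as were 14.8% of all genes. CCNG1 and MDM2 were above it in 5 of 6 arrays, SESN1 in 4 and TP53I3 in 3.

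**Figure D1:**
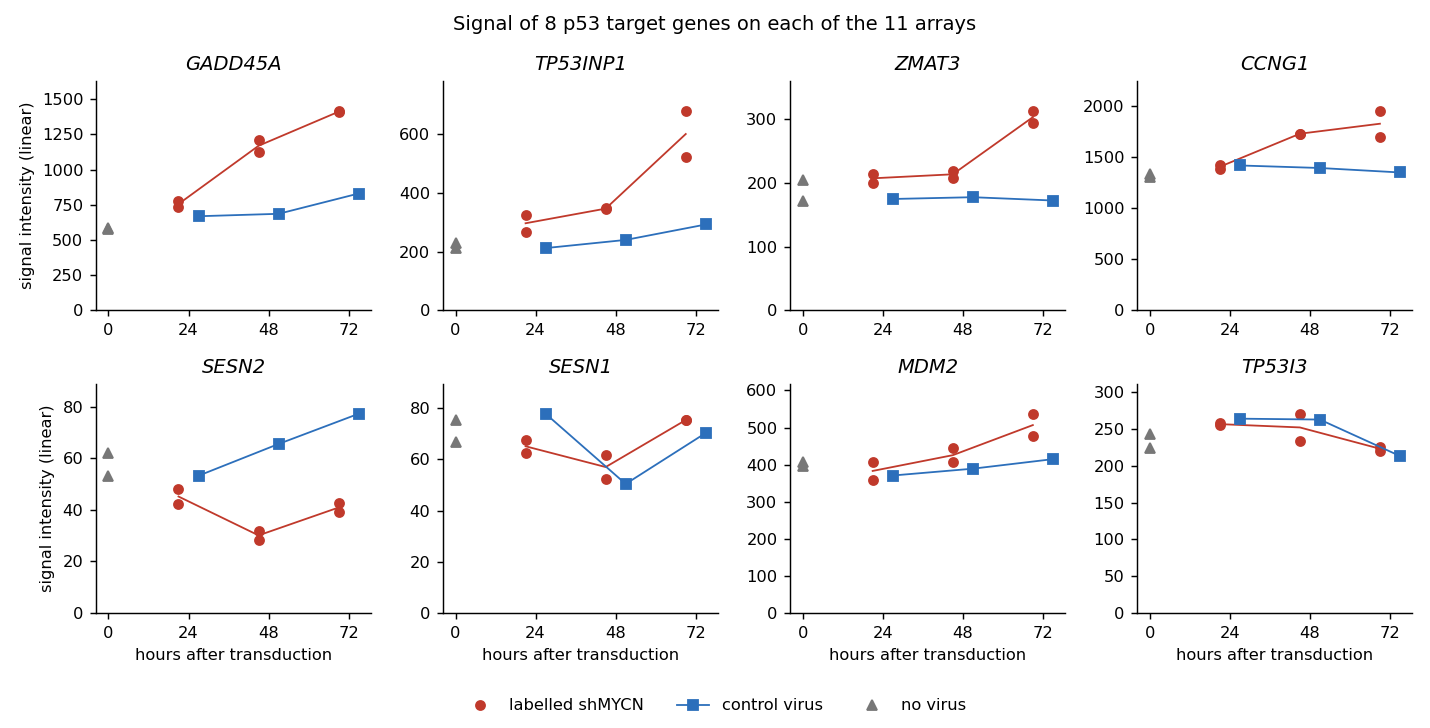
Signal of the 8 measured p53 targets (brightest probe set, linear y axes that start at 0) by hour, with a point for each array and lines through the group means, for shMYCN, control virus and no virus, moved slightly apart at each hour so that they can be seen. The GADD45A points of shMYCN climb to 1416.4 and 1405.7 at 72 h, against 829.8 with control virus, while the SESN2 points of shMYCN (28.4 to 48.2) lie below every control virus and no virus point (53.2 to 77.2).

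Among the genes of growth arrest and DNA damage, GADD45A encodes a small stress protein that binds PCNA and activates a kinase upstream of p38 and JNK. Its signal was 776.4 and 734.2 at 24 h, 1126.7 and 1211.4 at 48 h and 1416.4 and 1405.7 at 72 h in shMYCN arrays, against 668.3, 685.6 and 829.8 with control virus at the same hours and 584.1 and 577.3 without virus. The 48 and 72 h shMYCN arrays lay above every other array, and the 24 h pair lay below the 72 h control virus array. The log2 difference was 0.17 ± 0.095 at 24 h (SE), where the limma adjusted p was 0.550. At 48 h it was 0.76 ± 0.095 (adjusted p = 4.47e-04) and at 72 h 0.75 ± 0.095 (adjusted p = 1.31e-04), a 1.69-fold difference. Averaged over the hours GADD45A was 1.47-fold higher (log2 0.56 ± 0.055, adjusted p = 1.74e-05).

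CCNG1 encodes cyclin G1, which brings the phosphatase PP2A to MDM2. Its signal was 1419.3 and 1385.3 at 24 h, 1727.6 and 1723.3 at 48 h and 1948.2 and 1698.4 at 72 h in shMYCN arrays, against 1415.4, 1390.7 and 1347 with control virus and 1330 and 1304.2 without virus. The 24 h pair was level with the control virus arrays, and the 4 later arrays were above all of them. The difference was log2 0.31 at 48 h (adjusted p = 0.0646) and 0.43 ± 0.10 at 72 h (adjusted p = 0.00831), a 1.35-fold difference. Over the 3 hours it was 1.18-fold (log2 0.24 ± 0.060, limma adjusted p = 0.00846). Leaving out a control virus array takes its hour, with the shMYCN arrays of that hour, out of this average. CCNG1 did not pass in the average of 24 and 48 h (log2 0.15, adjusted p = 0.206). Nor did it in that of 24 and 72 h (log2 0.21, adjusted p = 0.0562).

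TP53INP1 encodes a stress-induced nuclear protein that also joins autophagosomes, and of the 8 genes it had the widest spread of group means, log2 1.42. Its signal was 325.8 and 266.8 at 24 h, 347.6 and 344.7 at 48 h and 678.6 and 521.6 at 72 h in shMYCN arrays, against 211.8, 239.6 and 292.1 with control virus and 228.1 and 211.6 without virus. All shMYCN arrays but the second at 24 h lay above every control virus and no virus array. The log2 difference was 0.45 at 24 h (limma adjusted p = 0.283, unadjusted p = 0.0144) and 0.50 ± 0.16 at 48 h (adjusted p = 0.0464). At 72 h it was 0.99 ± 0.16 (limma adjusted p = 5.69e-04), a 1.98-fold difference. The call at 48 h was lost in 12 of the 20 alternatives that could be fitted, at log2 0.13 to 0.50. Its average over the hours was 1.57-fold (log2 0.65 ± 0.090, adjusted p = 2.07e-04). The other 2 probe sets of TP53INP1 had mean signals of 2.99 and 2.78, under the dim level. With the mean of all probe sets, which takes those in, the average was log2 0.22 (adjusted p = 0.0312).

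ZMAT3 encodes a zinc-finger protein that binds RNA and acts on splicing and mRNA stability. The brightest of its 5 probe sets had signals of 200 and 215 at 24 h, 219.1 and 208.5 at 48 h and 313.4 and 293.8 at 72 h in shMYCN arrays, against 175, 177.8 and 172.6 with control virus and 172.1 and 204.4 without virus. The 72 h pair stood apart from all other arrays, and the earlier pairs were near the higher no virus array. The log2 difference was 0.23 at 24 h and 0.25 at 48 h, which did not pass (adjusted p = 0.558 and 0.216), and 0.76 ± 0.13 at 72 h (adjusted p = 8.56e-04), a 1.69-fold difference. Over the 3 hours ZMAT3 was 1.33-fold higher (log2 0.41 ± 0.073, limma adjusted p = 0.00114). Leaving out the 72 h control virus array takes 72 h, the hour of its largest difference, out of the average. ZMAT3 did not pass in the average of 24 and 48 h that remains (log2 0.24, adjusted p = 0.0993).

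TP53I3 encodes an enzyme resembling quinone oxidoreductases that has been tied to oxidative stress in p53-induced death. Its signal was 258.1 and 255.3 at 24 h, 233.6 and 270.8 at 48 h and 225.7 and 220.8 at 72 h in shMYCN arrays, against 264.1, 262.9 and 213.4 with control virus and 223.9 and 243.4 without virus. The groups overlapped throughout. Its average log2 difference was -0.013 ± 0.069 (adjusted p = 0.899), and it passed no comparison.

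The sestrins gave unlike values. SESN2 encodes a leucine-sensing inhibitor of mTORC1 signalling that is switched on by p53 and, under nutrient and endoplasmic reticulum stress, by ATF4. Its signal was 42.1 and 48.2 at 24 h, 31.8 and 28.4 at 48 h and 39.2 and 42.6 at 72 h in shMYCN arrays, against 53.2, 65.5 and 77.2 with control virus and 53.2 and 61.9 without virus. Every shMYCN array was below every control virus and no virus array. The share of all genes with such a gap was not computed, so the gap is not shown to be particular to SESN2. The log2 difference was -0.18 at 24 h (adjusted p = 0.773), -0.82 ± 0.16 at 48 h (adjusted p = 0.00636) and -0.71 ± 0.16 at 72 h (adjusted p = 0.00620). Averaged over the hours SESN2 was at 0.673 of the control virus level (log2 -0.57 ± 0.095, adjusted p = 6.84e-04). At signals this low the offset of 16 added before the log understates the difference, which was log2 -0.75 with an offset of 1 and -0.33 with an offset of 64.

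SESN1 encodes the sestrin first found as a p53 target. Its signal was 67.7 and 62.5 at 24 h, 52.4 and 61.6 at 48 h and 75.4 and 75.3 at 72 h in shMYCN arrays, against 77.8, 50.4 and 70.3 with control virus and 75.5 and 66.9 without virus. The groups overlapped, and the average log2 difference was 0.0018 ± 0.089 (adjusted p = 0.989). SESN3, the sestrin that FOXO factors control and no member of the set, was higher in shMYCN arrays by log2 0.53 (adjusted p = 0.0111).

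MDM2 had 10 probe sets, of which 4 were under the dim level. The brightest had signals of 358.9 and 407.4 at 24 h, 444.8 and 406.4 at 48 h and 476.1 and 537.3 at 72 h in shMYCN arrays, against 370.8, 389.2 and 414.9 with control virus and 407.8 and 395.8 without virus. The 72 h pair was the highest of all arrays, and the earlier ones overlapped the control virus and no virus arrays. The log2 difference was 0.15 ± 0.068 over the 3 hours (adjusted p = 0.109) and 0.28 ± 0.12 at 72 h (adjusted p = 0.0927). Leaving out either 48 h shMYCN array left the 72 h difference as it was and moved it past the threshold. Without array B at 48 h the average passed too (log2 0.17). The 48 h pair had the widest spread over genes (SD of its log2 difference 0.27, against 0.17 to 0.19 in the other pairs). Without either array that pair no longer enters the shared estimate of spread, so these gained calls are not particular to MDM2. The second probe set of MDM2, whose probes the maker marks as able to cross-hybridise, had signals of 281.6 to 342 in shMYCN arrays, 269.3 to 311.2 with control virus and 285.7 to 329.1 without virus, with its highest value at 24 h. The probe sets of MDM2 therefore differed in how they ran over the hours.

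**Figure D2:**
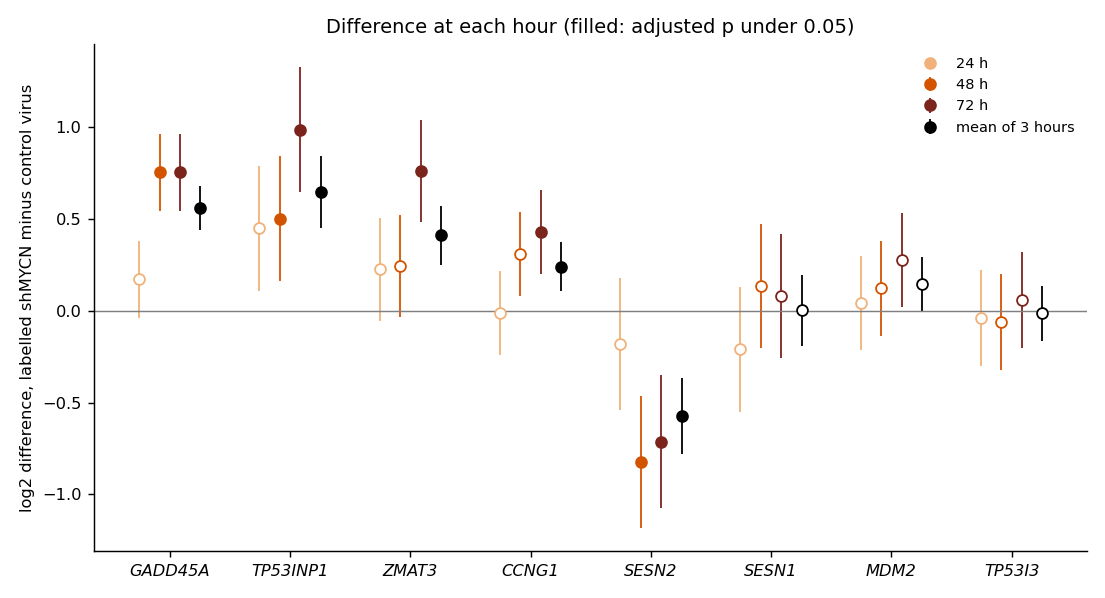
Log2 difference of shMYCN minus control virus for the 8 measured p53 targets at 24, 48 and 72 h and averaged, with 95% confidence intervals of the limma fit and filled points at an adjusted p under 0.05. At 72 h TP53INP1, ZMAT3, GADD45A and CCNG1 lie above 0 and SESN2 below it, and at 24 h no gene passed the adjusted threshold.

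The number of targets past the threshold differed by hour. At 24 h none of the 8 passed in limma (1 had an unadjusted p under 0.05), and 0.708% of all genes did. At 48 h GADD45A and TP53INP1 were higher and SESN2 lower, where 10.1% of all genes were called higher and 6.90% lower. At 72 h GADD45A, TP53INP1, ZMAT3 and CCNG1 were higher and SESN2 lower, where 18.3% of all genes were called higher and 15.7% lower. The median log2 difference of the 8 genes was 0.015 at 24 h, 0.19 at 48 h and 0.35 at 72 h, and that of all genes was 0.027, 0.037 and 0.036. These comparisons use different control virus arrays, 1 at each hour.

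The shMYCN minus control virus difference itself grew between 24 and 72 h for GADD45A, by log2 0.58 ± 0.13 (limma adjusted p = 0.0206). It was the 1 gene of 8 to pass this test of the difference, which 4.52% of all genes passed upward and 5.82% downward. That call was lost without any 1 of the 24 or 72 h shMYCN arrays or of the no virus arrays (log2 0.54 to 0.62, adjusted p = 0.0510 to 0.0813) and when the trend of the spread was not used (adjusted p = 0.0563). TP53INP1 gave 0.54 (adjusted p = 0.149), ZMAT3 0.53 (0.0840), CCNG1 0.44 (0.0812), SESN1 0.29 (0.444), MDM2 0.23 (0.421), TP53I3 0.099 (0.768) and SESN2 -0.53 (0.177). Past the threshold at 72 h and not at 24 h, TP53INP1, ZMAT3, CCNG1 and SESN2 were thus not shown to differ between those hours.

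Within the shMYCN arrays, 5 of the 8 genes were higher at 72 h than at 24 h, where 18.1% of all genes were higher and 18.3% lower. TP53INP1 rose by log2 0.97 ± 0.13 (adjusted p = 1.53e-04), a 1.97-fold rise, and GADD45A by 0.89 ± 0.078 (adjusted p = 1.15e-05), a 1.85-fold rise. ZMAT3 rose by 0.52 ± 0.10 (adjusted p = 0.00261), MDM2 by 0.39 ± 0.096 (adjusted p = 0.00838) and CCNG1 by 0.37 ± 0.085 (adjusted p = 0.00557). MDM2 was the gene that passed here and not against control virus, and its rise did not pass with the mean of its probe sets (log2 0.12, adjusted p = 0.403), without shMYCN array A at 24 h (log2 0.30, adjusted p = 0.101) or without array B at 72 h (log2 0.30, adjusted p = 0.0887). CCNG1 did not pass without array A at 72 h, at log2 0.27.

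The steps of that rise differed between the genes. Between 24 and 48 h GADD45A passed, at log2 0.62 (adjusted p = 0.00113), among 4.64% of all genes that rose and 5.13% that fell. CCNG1 gave 0.30 (adjusted p = 0.0502) and SESN2 -0.41 (adjusted p = 0.0808). Between 48 and 72 h TP53INP1 rose by 0.75 (adjusted p = 0.00478), ZMAT3 by 0.48 (0.0148) and GADD45A by 0.27 (0.0466), among 4.91% of all genes that rose and 6.51% that fell. The call of GADD45A in that last step was lost in 12 of 21 alternatives, at log2 0.22 to 0.27. That of TP53INP1 was lost without array A at 72 h (log2 0.57, adjusted p = 0.0565) or with the mean of all probe sets (0.25, adjusted p = 0.136), and that of ZMAT3 without either 72 h array (adjusted p = 0.114 and 0.0751). Within shMYCN, most of the climb of TP53INP1 and ZMAT3 fell in the last day, while that of GADD45A was already larger in the first. With control virus, 48 to 72 h took GADD45A from 685.6 to 829.8, TP53INP1 from 239.6 to 292.1 and ZMAT3 from 177.8 to 172.6. The GADD45A difference from control virus was log2 0.76 at 48 h and 0.75 at 72 h, so it did not grow in that step.

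The control virus arrays, 1 at each hour, were compared over the same hours. Between 24 and 72 h they gave log2 0.44 for TP53INP1 (adjusted p = 0.596), 0.43 for SESN2 (0.653), 0.31 for GADD45A (0.517) and -0.29 for TP53I3 (0.700). None of the 8 passed in limma, 3 had an unadjusted p under 0.05, and 0.126% of all genes passed. For SESN2 the shMYCN arrays gave -0.10 (adjusted p = 0.584), and neither change passed.

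Against the arrays without virus, the shMYCN arrays gave 4 genes higher and 1 lower of 8, where 17.7% of all genes were higher and 13.1% lower. GADD45A was higher by log2 0.87 (adjusted p = 3.00e-06), TP53INP1 by 0.80 (1.78e-04), ZMAT3 by 0.32 (0.0144) and CCNG1 by 0.31 (0.00556), and SESN2 was lower, at -0.44 (0.0109). ZMAT3 did not pass without the first no virus array (log2 0.20), SESN2 without the second (log2 -0.35), or CCNG1 without either one (adjusted p = 0.0637 and 0.0868). MDM2 gave 0.11 (adjusted p = 0.317). The control virus arrays against no virus gave no call in limma among the 8 genes (1 had an unadjusted p under 0.05), and 0.0337% of all genes passed. GADD45A had log2 0.31 there (adjusted p = 0.372). Both of these comparisons share the no virus arrays, and the first shares the shMYCN arrays with the comparisons above.

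MDM2, ZMAT3, TP53INP1 and SESN2 had more than 1 probe set each, and all 24 probe sets of the 8 genes were compared in a fit of all 41091 probe sets with 1 gene symbol. Of the 24, 18 were above the dim level. Averaged over the hours, 5 probe sets were higher and 1 lower in shMYCN arrays, where 7.83% of all probe sets were higher and 6.89% lower. At 72 h the counts were again 5 and 1, with 6.32% and 6.18% of all probe sets. From 24 to 72 h within shMYCN, 9 of the 24 rose and none fell (limma, with 0 falling at an unadjusted p under 0.05), where 7.34% of all rose and 6.38% fell. Of the 9, 5 were probe sets of ZMAT3, so they do not count separate genes. The shares are over all 41091 probe sets, of which 22778 were above the dim level, so they do not cover equally bright probe sets.

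The 5 ZMAT3 probe sets were alike in their rise within shMYCN and less so against control virus. At 72 h the 5 probe sets, from brightest to dimmest, differed between shMYCN and control virus by log2 0.76, 0.87, 0.48, 0.56 and 0.036, and the brightest 2 of them passed. Averaged over the hours the first 4 gave log2 0.27 to 0.41, while the fifth gave -0.16 (adjusted p = 0.462), with -0.14 at 24 h and -0.37 at 48 h. The fifth was the faintest, though above the dim level, with a mean signal of 24.1 and signals of 14.7 to 34.7 in shMYCN arrays, 18 to 34.5 with control virus and 17.5 to 23.8 without virus. From 24 to 72 h within shMYCN all 5 passed, at log2 0.52 to 0.64.

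The second SESN2 probe set had signals of 44, 32.7, 19.2, 37.5, 22.9 and 30 in shMYCN arrays (24 to 72 h), against 53.1, 50.3 and 39.5 with control virus and 44.4 and 46.9 without virus. All but the first of its shMYCN values lay below every other array, and its average log2 difference was -0.45 (adjusted p = 0.0980, and 0.0279 when dim probe sets were left out of the fit). At 72 h it gave -0.39 (adjusted p = 0.445). For MDM2 none of the 6 probe sets above the dim level passed against control virus, with average log2 differences of 0.026 to 0.35 and values of -0.042 to 0.55 at 72 h. In that limma fit 0 of the 6 had an unadjusted p under 0.05 on average and 1 at 72 h.

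**Figure D3:**
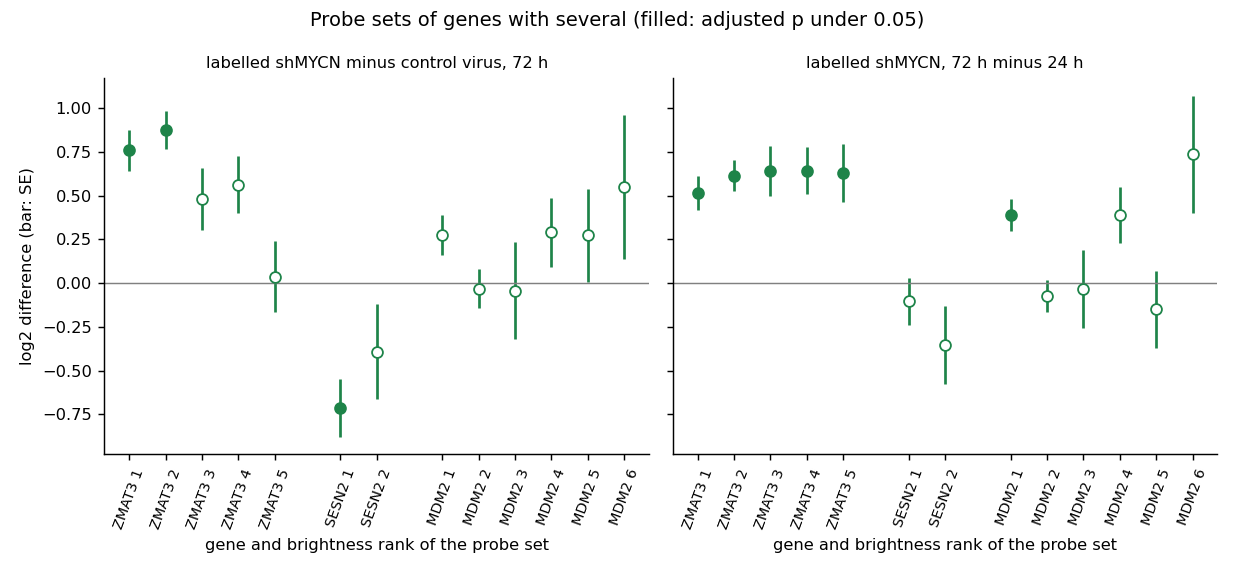
Log2 difference (points, with bars of 1 SE) of each ZMAT3, SESN2 and MDM2 probe set above the dim level, ordered by brightness within a gene, for shMYCN minus control virus at 72 h (left) and for 72 h minus 24 h within shMYCN (right), with filled points at an adjusted p under 0.05. The 5 ZMAT3 probe sets lie together at 0.52 to 0.64 on the right, and those of MDM2 lie on both sides of 0 in both panels.

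Other genes listed as p53 targets were set beside the 8 genes. Of a list of 65, 60 were named on the array and 49 were bright enough to test. The list came from general knowledge, and whether p53 acts directly on each gene was not tested. Averaged over the hours, 9 of the 49 were higher in shMYCN arrays, 5 were lower and 35 did not pass, where 22.2% and 15.8% of all genes were called. Their median log2 difference was -0.027, against 0.037 for all genes. At 24 h none passed in limma (4 had an unadjusted p under 0.05), at 48 h 5 were higher and 4 lower, where 10.1% and 6.90% of all genes were called, and at 72 h 6 were higher and 5 lower, where 18.3% and 15.7% were. Leaving out the 72 h control virus array leaves the average of 24 and 48 h alone. In that average 9 of the 49 passed in place of 14, and the count among all genes tested fell to 1938 from 4500.

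In the growth arrest group, 2 of 7 were higher and 1 was lower. Over all genes, 22.2% were called higher and 15.8% lower, shares that apply to each group below. Groups this small are described only. CCNG2, an unconventional cyclin that opposes cycling, was higher by log2 0.69 ± 0.065 (adjusted p = 1.25e-05), and BTG1, an antiproliferative relative of BTG2, by 0.42 ± 0.058 (adjusted p = 2.01e-04). CDKN1A, which encodes the CDK inhibitor p21 and is the classic arrest target of p53, was lower, at -0.39 ± 0.083 (adjusted p = 0.00309). In the apoptosis group APAF1, the scaffold of the apoptosome, was the 1 of 7 called, at log2 -0.53 (adjusted p = 0.00133). Its nearest neighbours by p were AEN (-0.19, adjusted p = 0.0529), the death receptor gene TNFRSF10B (-0.13, 0.0854) and PMAIP1, which encodes the BH3-only protein NOXA (-0.10, 0.189), and BAX gave 0.0041.

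In the DNA repair group 1 of 9 passed, PCNA, the sliding clamp of replication, at log2 -0.21 (adjusted p = 0.0215). The damage recognition gene DDB2 gave -0.16 (adjusted p = 0.234). Among metabolic targets 1 of 10 was higher and 2 were lower. For both of these groups the shares over all genes were 22.2% higher and 15.8% lower. DDIT4, an inhibitor of mTORC1 also switched on by low oxygen, was higher at 0.53 (adjusted p = 2.51e-04), opposite in sign to SESN2. PANK1, an enzyme of coenzyme A synthesis, was lower at -0.77 (adjusted p = 9.59e-06), as was PRKAB1, a subunit of the energy sensor AMPK, at -0.50 (4.33e-04).

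Among the feedback regulators, which shape the p53 response itself, 2 of 8 were higher, where 22.2% of all genes were. These were SUSD6 at log2 0.28 (adjusted p = 0.0290) and TRIAP1, an inhibitor of apoptosis, at 0.18 (0.0357), while PPM1D, the phosphatase that switches the damage response off, gave 0.13 (0.113). In the group of secreted, membrane and signalling targets 4 of 8 were higher, again beside 22.2% of all genes. These were RAP2B at 0.47 (limma adjusted p = 0.00134), ANKRA2 at 0.32 (0.00423), PLXNB2 at 0.30 (0.00688) and KITLG, the ligand of the receptor KIT, at 0.26 (0.0241).

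**Figure D4:**
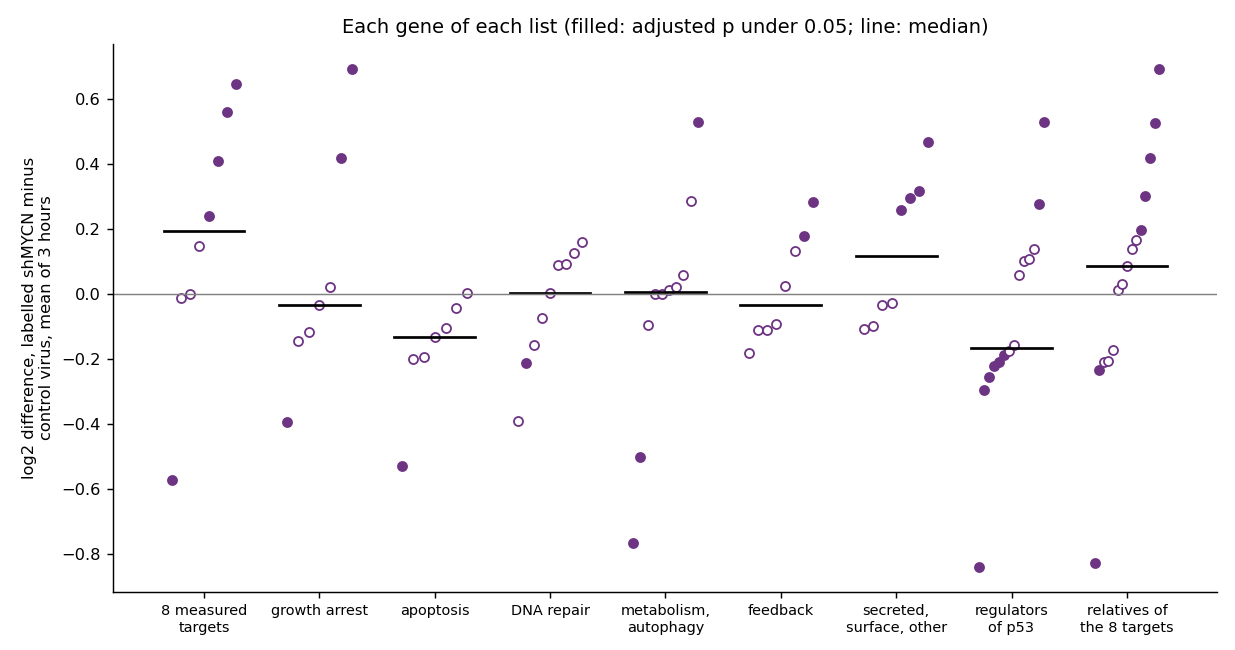
Log2 difference of shMYCN minus control virus, averaged over the hours, for each tested gene of the 8 measured targets, the groups of other p53 targets, the p53 regulators and the relatives of the 8 targets. Filled points had an adjusted p under 0.05, and thick lines mark the median of each group, 0.19 for the 8 targets and -0.16 for the regulators.

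Genes that act on p53 from above were looked at in the same way. Of 14 regulators, 6 were lower and 2 higher, where 15.8% of all genes were called lower and 22.2% higher. Their median log2 difference was -0.16, against 0.037 for all genes. HIPK2, a kinase that phosphorylates p53, was lower by the widest margin, at log2 -0.84 ± 0.073 (adjusted p = 7.53e-06), and the checkpoint kinase genes CHEK1 (-0.29, 0.00433) and CHEK2 (-0.21, 0.0399), the arginine methyltransferase gene PRMT5 (-0.19, 0.0244), the deacetylase gene SIRT1 (-0.26, 0.0253) and PRKDC (-0.22, 0.0360) were lower too. TP53BP1, a repair scaffold that binds p53, was higher at 0.53 (adjusted p = 2.84e-04), as was the acetyltransferase gene EP300 at 0.28 (0.0425). MDM4, the partner of MDM2 in holding p53 down, gave 0.14 (adjusted p = 0.122).

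Relatives of the 8 targets that are not themselves in the set overlap the lists above. CCNG2 and BTG1 were also counted among the other p53 targets, and MDM4 among the regulators. Of 15 tested relatives, 5 were higher, 2 were lower and 8 did not pass. Over all genes, 22.2% were called higher and 15.8% lower. The median log2 difference of the relatives was 0.088, against 0.037 for all genes. The higher ones were CCNG2, SESN3, BTG1, ZMAT1 and BTG3, and the lower ones were CCNI, a cyclin related to cyclin G1, at -0.83 (adjusted p = 2.77e-06) and CRYZ, a quinone oxidoreductase, at -0.23 (0.00737). The CCNG2 difference also grew between 24 and 72 h, by log2 0.61 (limma adjusted p = 0.0338). Of all genes tested, 4.52% passed that test upward and 5.82% downward. A widening gap was not particular to CCNG2. CCNI was at 2213.4 in shMYCN arrays against 2647 with control virus at 24 h, and at 975.2 against 2353.7 at 72 h. Thus both cyclin G genes were higher in shMYCN arrays, and of the sestrins SESN3 was higher, SESN2 lower and SESN1 not called.

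By spread of the 7 group means, the 8 genes ran from TP53INP1 (log2 1.42), GADD45A (1.26), SESN2 (1.02) and ZMAT3 (0.76) to SESN1 (0.50), CCNG1 (0.46), MDM2 (0.43) and TP53I3 (0.29). For the first 3, the genes with the most similar run over the 11 arrays were found by the root mean square difference of centred log2 signals among 11864 other genes. ST8SIA3 (0.105), PLCXD2 (0.114) and LRP8-DT (0.116) were nearest to TP53INP1, where the median gene was at 0.495. BRSK2 (0.0867), KLHDC8A (0.0872) and TRIB3 (0.0938) were nearest to GADD45A, with a median of 0.462. FGFR1OP2 (0.112), PHF8 (0.113) and CHCHD5 (0.118) were nearest to SESN2, with a median of 0.362. These are descriptions over arrays that share their groups. Only the nearest genes of the first 3 targets were kept, so whether the 8 targets run alike was not examined.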

How the data were processed

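The authors deposited signal intensities, on a linear scale, of 54675 probe sets on 11 arrays. MAS5 and GCOS are named, without versions, per the submitters' processing notes. The middle 96% of probe sets averaged 100.01 on each array, which hides any change in a cell's total RNA. Names of probe sets came from the array's annotation, updated to RefSeq symbols (41097 had 1 symbol, 1801 several and 11777 were unnamed here). A gene was represented by its brightest probe set, and the dimmest 40% of genes by mean signal (under 14.76, the dim level) were left out. Means of the 7 groups were fitted to log2(signal + 16) with limma 3.58.1 in R 4.3.3 (eBayes, trend on). The fit had 4 residual degrees of freedom and a prior of 7.35. It takes the spread of the single control virus arrays to be that of the paired ones. Two-sided p-values of 11 comparisons were adjusted by Benjamini-Hochberg over 11865 genes and called under 0.05. The fit was tested on simulated data.

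All 8 genes and their probe sets are named, as are up to 4 genes of each list by smallest p and the 3 genes nearest to each of 3 targets. BAX, SIRT1, PRKDC, CHEK2, EP300, MDM4, SESN3, ZMAT1 and BTG3 lie outside this rule and were named after their values were seen. The members and lists were chosen with earlier results of these data known. Alternatives were other offsets, quantile or median scaling, other filters, the mean of all probe sets, no trend, a stricter threshold, a block for the letters A and B, and leaving out each array.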

Additional observations from a re-analysis of the deposited data

Results flagged for a closer look

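The difference of GADD45A between shMYCN and control virus differed between 24 and 72 h. Its log2 value was 0.58 ± 0.13 larger at 72 h, by the contrast of the 2 differences in the limma fit, with an adjusted p of 0.0206. It did not pass in 8 of the 19 alternatives that could be fitted (adjusted p over these 0.00302 to 0.0813). The difference at each hour rests on 2 shMYCN arrays and 1 control virus array. No group had the 4 arrays needed to look for a single array far from the rest.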

How the results depend on the processing

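Across 21 alternatives, or 19 or 20 for comparisons that rest on a single control virus array left out, no call of the 8 genes turned direction. Of 1770 values, 1698 kept their side of the threshold, 50 lost a call and 22 gained one, and 25 values without a call changed sign. Leaving out a control virus array takes its whole hour out of the average against control virus, so the average without the 72 h one covers 24 and 48 h alone. Without each array in turn, the number of the 8 genes called ran between 3 and 6 for the average against control virus, where 3 came without the 72 h control virus array, which also lowered the genes called overall to 1938 from 4500. The range was 0 to 3 for the growth of the difference from 24 to 72 h, 1 to 2 for 24 to 48 h, 0 to 3 for 48 to 72 h, 3 to 5 for shMYCN against no virus, 0 to 1 for control virus against no virus (1 without a 48 h shMYCN array) and 9 to 19 for the other p53 targets. The growth of the difference gave 2 genes with quantile normalization and 0 without the trend or at an adjusted p of 0.01. The step from 24 to 48 h gave 2 with an offset of 64, quantile normalization, the 60% filter or the replicate block, CCNG1 being added. At an adjusted p of 0.01 the step from 48 to 72 h gave 1 and shMYCN against no virus gave 3. TP53INP1 lost its call at 48 h in 12 alternatives. SESN1 and SESN2 were too dim to be tested under the 60% filter, and so had fewer alternatives, down to 18. Deviations between the letters A and B correlated little from hour to hour (-0.051, 0.038 and 0.10). Such correlations cannot decide whether the letters mark paired cultures. The block for the letters left 5 genes called in the average. The number of arrays limits every value, and in dim probe sets signal over background does.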
